A study of Mus musculus with 9 samples.

Results

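Excitation-contraction coupling is the step by which the action potential of a muscle fiber becomes a calcium signal, and 10 of its genes were examined here in the tibialis anterior of mice injected with dexamethasone (DEX), with or without turmeric extract (TE) in the diet. The voltage sensor of the transverse tubule opens the ryanodine receptor of the sarcoplasmic reticulum, calcium bound by calsequestrin leaves the reticulum, and the filaments contract. Calcium ATPases then pump the ion back, small membrane peptides restrain these pumps, and in fast fibers parvalbumin takes up calcium in the cytosol. The fast fiber pump is ATP2A1 and the skeletal calsequestrin is CASQ1, whereas the heart uses ATP2A2 and CASQ2, which slow fibers have as well. The genes were Cacna1s, Ryr1, Trdn, Casq1, Casq2, Atp2a1, Atp2a2, Sln, Pln and Pvalb. Their probe sets were all those that the array's annotation gave to exactly 1 of these symbols, which made 24 probe sets of 10 genes out of 45037 probe sets and 18193 genes.

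The study asked whether TE, a water extract of turmeric rhizome, changes the response of muscle to DEX, a synthetic glucocorticoid that causes muscle wasting. All mice were male C57BL/6J animals, 15 weeks old, on a diet based on AIN93. Saline was injected in the control mice and 5 mg/kg DEX in the DEX mice, while DEX + TE mice had that dose of DEX and 2% TE in the diet. Injections were intraperitoneal and daily for 7 days. The diets began 5 days before the injections per the protocol, although the sample titles place turmeric after dexamethasone. No group received TE without DEX, so an effect of TE alone could not be measured. Each group had 3 arrays, each labelled as a separate biological replicate, and the methods state that mice close to the average body and muscle weight were taken.

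Each array gave a linear signal per probe set, a group of short DNA probes near the 3′ end of a transcript. Median signals ranged from 71.5 to 77.7 in the DEX group, from 76.2 to 86.4 in the control group and from 84.7 to 95.03 in the DEX + TE group. Fast fiber genes were abundant on every array, with a summed signal of 8 markers of 445418 to 574844 in control, 334704 to 416919 in DEX and 403651 to 439865 in DEX + TE. The sum of 6 slow fiber markers was 3963 to 8177, 3984 to 6422 and 3574 to 4704, so genes of both fiber classes were detected. Of 6 cardiac markers Tnni3 was the 1 below a signal of 50 on all arrays, and their sum was 4600 to 8305 in control, 2017 to 3935 in DEX and 2306 to 3340 in DEX + TE, without overlap between control and the injected groups. Between control and both injected groups 1 of the 4 tested did not overlap, beside 10.9% of all probe sets. In DEX against control 2 had higher and 2 lower means (median log2 fold change -0.63). An unadjusted p under 0.05 held for 2 (14.4% of all probe sets), and 0 were called by limma (0.502%) or Rank Product (0.215%). The lowest value was that of Nppb (-1.62), whose mean log2 signal was 5.28, below log2 of 50. A test required a group mean of 50, which only its control group reached, so its fall is no support. Of 5 fibroblast markers 5 had lower means in DEX than in control and 2 fell, among them the collagen gene Col1a1 (0.502% of all probe sets were called), with summed signals of 20720 to 30069 in control, 15876 to 18000 in DEX and 22022 to 24482 in DEX + TE. Of 4 adipocyte markers 3 had higher and 1 a lower mean in DEX than in control (median log2 fold change 0.78). At an unadjusted p under 0.05 there were 3, with 2 higher and 1 lower (14.4% of all probe sets), and 0 were called there. A rise was called for 1 in DEX + TE against control (0.379% called) and in both injected groups against control (0.929%). The adipocyte sums were 20648 to 24601 in control, 16199 to 19760 in DEX and 19897 to 22058 in DEX + TE. RNA quality, read as the log2 ratio of the 3′ over the 5′ actin probe sets, stood at 0.25 to 0.33 in control, 0.10 to 0.43 in DEX and 0.38 to 0.54 in DEX + TE. The same ratio for Gapdh overlapped between the groups, at -0.38 to -0.32 in control, -0.38 to -0.30 in DEX and -0.35 to -0.30 in DEX + TE. The part of these markers and of RNA quality in the results was not tested. In such bulk RNA, fewer cells of a type and less RNA per cell cannot be told apart.

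The promoters of Atp2a1, Casq1, Casq2 and Pvalb are shown first, because these are the genes with a promoter window whose signals differed most between DEX and control. The windows hold 250 bases before and 50 bases after the transcription start, are taken from RefSeq on GRCm38.p6 and are written 5′ to 3′ on the strand of the gene. For Atp2a1 (chr7:126463024-126463323, minus strand) and Casq1 (chr1:172219846-172220145, minus strand) the capitals mark CAGCTG, an E-box of the kind bound by MyoD. For Casq2 (chr3:102086165-102086464, plus strand) and Pvalb (chr15:78206351-78206650, minus strand) the capitals mark the binding motif of MEF2, a muscle transcription factor.
Atp2a1: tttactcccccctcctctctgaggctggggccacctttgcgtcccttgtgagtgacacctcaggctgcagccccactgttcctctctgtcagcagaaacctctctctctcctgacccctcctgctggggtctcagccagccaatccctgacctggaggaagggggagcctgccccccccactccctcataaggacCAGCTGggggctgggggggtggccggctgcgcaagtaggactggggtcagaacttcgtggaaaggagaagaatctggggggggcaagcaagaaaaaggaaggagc
Casq1: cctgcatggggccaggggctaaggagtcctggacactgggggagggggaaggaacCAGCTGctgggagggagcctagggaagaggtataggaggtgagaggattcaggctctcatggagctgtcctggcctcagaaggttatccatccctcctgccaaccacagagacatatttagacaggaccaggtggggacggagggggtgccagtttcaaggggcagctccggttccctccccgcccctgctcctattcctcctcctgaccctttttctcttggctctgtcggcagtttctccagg
Casq2: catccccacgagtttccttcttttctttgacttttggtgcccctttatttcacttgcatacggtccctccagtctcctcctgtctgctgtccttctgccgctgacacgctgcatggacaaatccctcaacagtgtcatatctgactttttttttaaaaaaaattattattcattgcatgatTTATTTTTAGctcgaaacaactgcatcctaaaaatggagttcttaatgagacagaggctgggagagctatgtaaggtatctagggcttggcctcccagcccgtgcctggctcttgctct
Pvalb: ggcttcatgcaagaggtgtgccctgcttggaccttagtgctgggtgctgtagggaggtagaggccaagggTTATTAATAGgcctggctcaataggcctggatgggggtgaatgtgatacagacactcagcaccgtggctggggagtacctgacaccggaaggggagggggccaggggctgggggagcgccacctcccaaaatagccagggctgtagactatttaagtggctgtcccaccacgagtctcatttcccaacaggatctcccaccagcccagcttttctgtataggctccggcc
The E-box starts 55 bases before the transcription start in Atp2a1 and 195 before it in Casq1, and the MEF2 motif starts 69 bases before it in Casq2 and 180 before it in Pvalb. Windows were given for 7 of the 10 genes, 8 windows in all, and no window was used for Trdn, Atp2a2 and Sln. CAGCTG, which reads the same on both strands, was also found in Cacna1s and Pln, and it occurs in 16.3% of the 32851 promoter windows of the mouse. The MEF2 motif, searched on both strands, was in no other window of the 10 genes and occurs in 3.19% of all windows. AGAACA, a part of the glucocorticoid receptor site, was found on either strand in the window of Pln and in a second window of Pvalb, and it is in 19% of all windows. The full palindrome, AGAACA and TGTTCT with 3 bases between them, was in none of the 8 windows and is in 0.00913% of all windows. These matches describe the letters of a window and not its use.

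No probe set of the 10 genes was called after DEX injection, although the 95% confidence intervals of 4 genes left out 0. The largest difference was in Sln, whose mean was higher in DEX, while Pvalb, Casq1 and Atp2a1 had lower means. A call required an adjusted p under 0.05 and a log2 fold change of at least 0.6 in either direction, the thresholds of the study. Of the 24 probe sets, 21 reached a group mean of 50 and were tested with limma among 29269 probe sets. In DEX against control 0 of 21 were called by limma, where 0.502% of all probe sets were called, and 0 by Rank Product, where 0.215% were. At an unadjusted p under 0.05 there were 4 of 21 (Sln, Casq1, Pvalb and Atp2a1), against 14.4% of all probe sets. The DEX and control arrays did not overlap for 4 of 21 (Sln and Casq2 higher, Casq1 and Pvalb lower), against 21.2% of all probe sets, so that this share was no higher than the background. The median log2 fold change of the 10 genes, each by its brightest probe set, was -0.16, beside -0.03 over all probe sets.

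**Figure D1:**
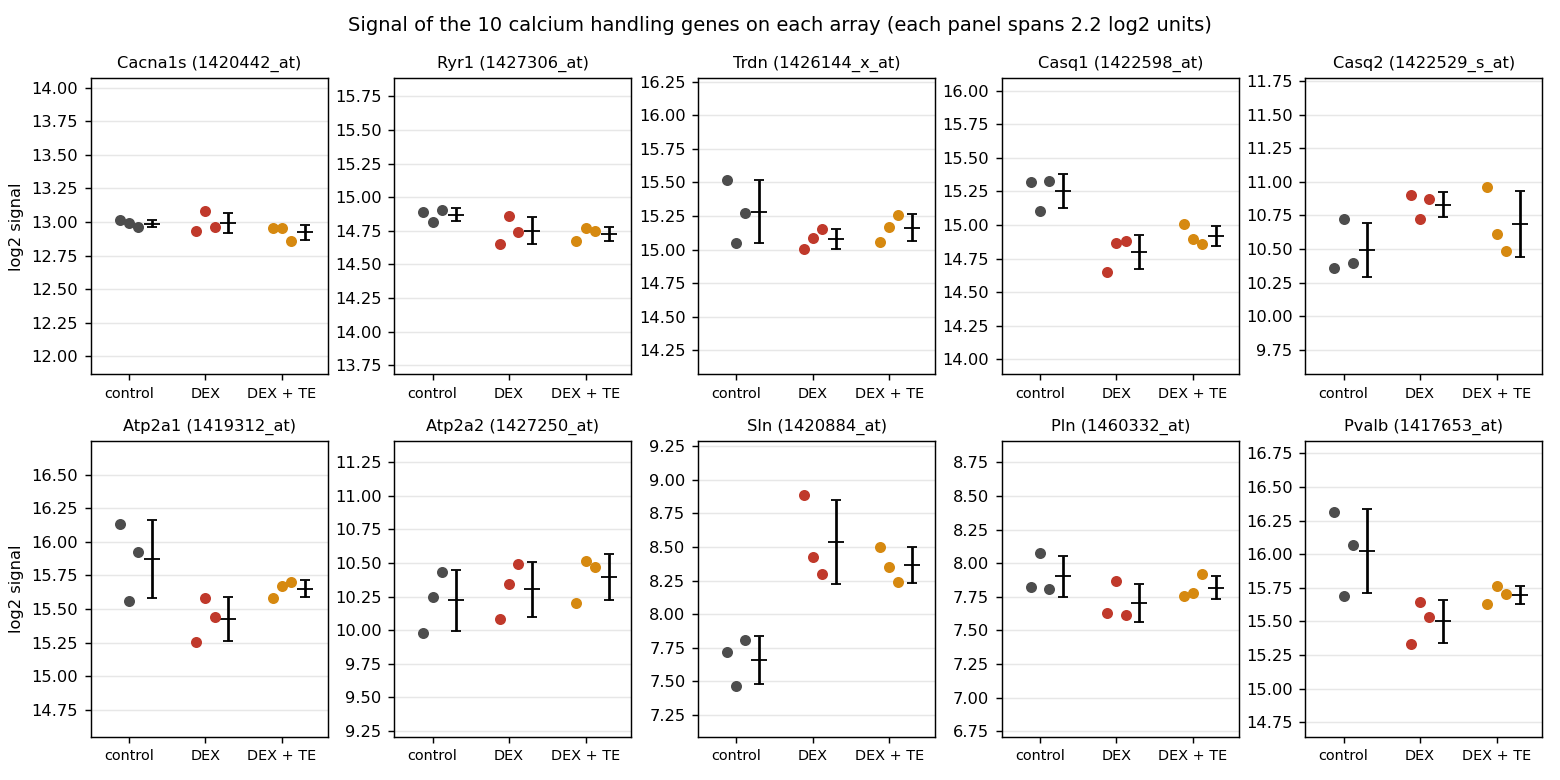
Log2 signal of the brightest probe set of each gene (vertical axis) on the 9 arrays, with points for arrays, grouped as control, DEX and DEX + TE, and bars for the mean and SD of 3 arrays. The DEX arrays lie above the control arrays for Sln and Casq2 and below them for Casq1 and Pvalb, and the arrays of DEX and DEX + TE overlap in all 10 panels.

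In the trigger and release step no probe set of Cacna1s, Ryr1 or Trdn was called, and Cacna1s had a narrow interval on its only probe set. Cacna1s, the pore-forming subunit of the voltage sensor, had signals of 8265, 8156 and 7963 in control, 7828, 8663 and 7988 in DEX, and 7942, 7948 and 7407 in DEX + TE. The DEX values spanned those of control, and the log2 fold change of DEX against control was 0.00 (95% confidence interval -0.20 to 0.21, limma adjusted p = 0.989). The DEX + TE arrays all lay below the control arrays, by -0.07 (adjusted p = 0.768). Cacna1s varied little between arrays of a group, with a coefficient of variation of 1.88% in control and 5.43% in DEX. Its interval excluded a change of the size required for a call.

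Ryr1, the calcium release channel, was measured by a pair of probe sets. The brighter (1427306_at) gave 30406, 28849 and 30663 in control, 25792, 29698 and 27454 in DEX, and 26109, 27988 and 27480 in DEX + TE. One DEX array was within the control range and the others were below it, whereas all DEX + TE arrays were below it. The log2 fold change was -0.12 for DEX against control (interval -0.34 to 0.10, adjusted p = 0.608) and -0.14 for DEX + TE against control (adjusted p = 0.542). The second probe set (1457347_at) gave -0.24 and -0.21 for the same comparisons, with overlapping groups and adjusted p of 0.622 and 0.661.

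Triadin, encoded by Trdn, ties calsequestrin to the release channel, and its 6 probe sets did not share a direction. The brightest (1426144_x_at) had 47012, 33959 and 39552 in control, 32806, 34779 and 36421 in DEX, and 34073, 36912 and 39131 in DEX + TE. The first control array stood above the rest, and the groups overlapped, with a log2 fold change of -0.20 for DEX against control (interval -0.52 to 0.12, adjusted p = 0.548). Over the 6 probe sets this change ranged from -0.30 (1426143_at, adjusted p = 0.408) to 0.54 (1451940_x_at, adjusted p = 0.406). The probe set 1426142_a_at, also bright, was the steadiest, at 21590 ± 1090 in control, 21670 ± 1184 in DEX and 22429 ± 628 in DEX + TE (mean ± SD, n = 3). Names that end in _x_at or _a_at mark probes that may bind more than 1 transcript. Whether these probe sets weigh forms of triadin differently, or also take up other transcripts, was not tested.

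**Figure D2:**
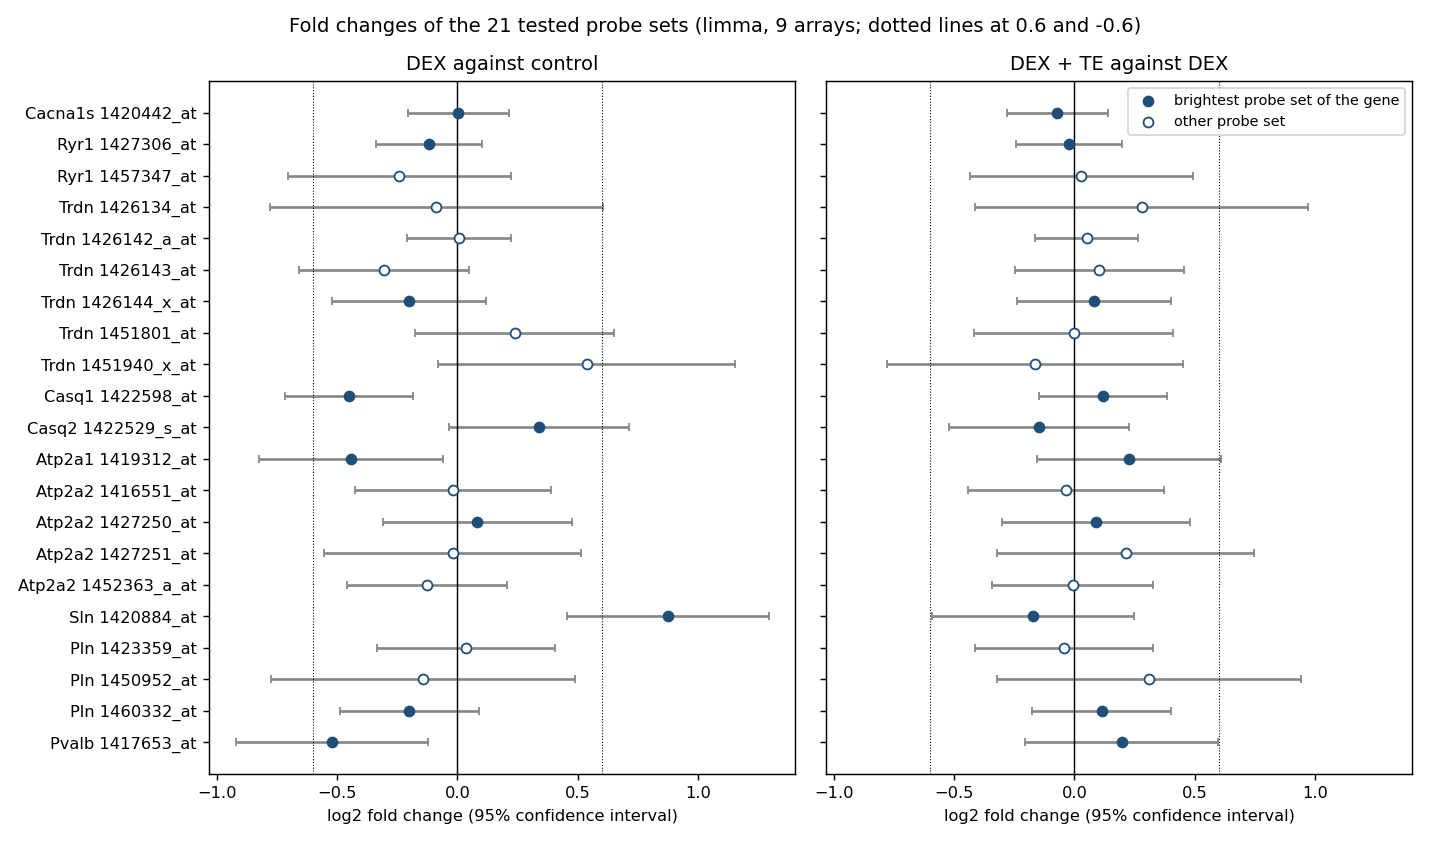
Log2 fold change (horizontal axis) with 95% confidence interval of the 21 tested probe sets of the 10 genes, for DEX against control on the left and DEX + TE against DEX on the right, with filled points for the brightest probe set of a gene. On the left only the intervals of Sln, Casq1, Atp2a1 and Pvalb leave out 0, and on the right every interval includes 0.

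In DEX the mean of the skeletal calsequestrin was lower and that of the cardiac form higher than in control, and neither was called. Casq1, the skeletal calsequestrin, had signals of 40873, 35242 and 41099 in control, 25775, 29873 and 30190 in DEX, and 32879, 30421 and 29780 in DEX + TE. All arrays of both DEX-injected groups were below the lowest control array. The means were 39071 ± 3318, 28612 ± 2463 and 31027 ± 1636 (SD, n = 3), and DEX lay below control by a log2 fold change of -0.45 (SE 0.11, interval -0.71 to -0.18). Its adjusted p was 0.147 by limma, so Casq1 was not called. Under alternative settings that kept all arrays its limma adjusted p was 0.00968 to 0.414. The log2 fold change there was -0.45 to -0.20, smaller than the fold threshold throughout.

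Casq2, the cardiac calsequestrin that slow fibers also have, had 1313, 1687 and 1348 in control, 1910, 1689 and 1871 in DEX, and 1989, 1565 and 1430 in DEX + TE. The DEX arrays lay above the control arrays, the lowest of them only just, while the DEX + TE arrays spread over both groups. The log2 fold change was 0.34 for DEX against control (interval -0.04 to 0.71, adjusted p = 0.390) and 0.19 for DEX + TE against control (adjusted p = 0.622).

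Of the pumps, the fast fiber isoform had a lower mean in DEX and the mean of the other isoform differed less. Atp2a1, the calcium ATPase of fast fibers, had 71777, 48199 and 62059 in control, 39076, 49160 and 44482 in DEX, and 49097, 52277 and 53194 in DEX + TE. The second control array fell among the arrays of the injected mice, and the control signals varied most, with a coefficient of variation of 19.5% against 11.4% in DEX and 4.17% in DEX + TE. The log2 fold change of DEX against control was -0.44 (interval -0.83 to -0.06, limma adjusted p = 0.282), and that of DEX + TE against control was -0.22 (adjusted p = 0.586).

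Atp2a2, the calcium ATPase of slow fibers and the heart, had signals of 1011, 1216 and 1383 in control, 1083, 1299 and 1437 in DEX, and 1176, 1462 and 1417 in DEX + TE on its brightest probe set (1427250_at). The groups overlapped throughout, with a log2 fold change of 0.08 for DEX against control (interval -0.31 to 0.48, adjusted p = 0.856). The other 3 tested probe sets of Atp2a2 gave -0.02, -0.02 and -0.13. Of its 2 probe sets that were not tested, 1443551_at was below 50 on all arrays and 1437797_at reached 50 on 5 arrays, spread over the 3 groups.

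The pump regulator sarcolipin, encoded by Sln, showed the largest difference of the 10 genes. Sarcolipin is a peptide that binds the calcium ATPase and lowers the calcium moved per ATP. Its probe set 1420884_at had 210.2, 177 and 224 in control, 474, 344 and 315 in DEX, and 363, 327 and 302 in DEX + TE. All 6 arrays of injected mice were above all 3 control arrays. The means were 204 ± 24.5, 378 ± 84.8 and 331 ± 30.6 (SD, n = 3), which made DEX 1.83-fold of control on the log scale (log2 0.88, SE 0.18, interval 0.46 to 1.29). The p was 0.00151 and the adjusted p 0.0979 by limma, so Sln was not called. DEX + TE against control gave 0.70 (adjusted p = 0.172), and both DEX-injected groups against control gave 0.79 (interval 0.42 to 1.15, adjusted p = 0.0731). Sln ranked 591st from the top by fold change and 230th by p among 13662 genes in DEX against control.

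The call on Sln depended on the setting. With a group mean of at least 100 in place of 50, the adjusted p was 0.0480 for DEX against control and 0.0353 for both injected groups, and with a mean-variance trend in limma it was 0.0240 and 0.0158. Under the other alternatives, leaving out single arrays included, it was above 0.05, up to 0.247 and 0.200. Without the first DEX array, which had the highest signal, the log2 fold change was 0.70. The second probe set of Sln (1420883_at) was below 50 on all arrays and was not tested.

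Phospholamban, encoded by Pln, restrains ATP2A2 until it is phosphorylated. On its brightest probe set (1460332_at) it had 226, 270.2 and 224 in control, 198, 234 and 195 in DEX, and 216, 219 and 242 in DEX + TE. The groups overlapped, and the log2 fold change was -0.20 for DEX against control (interval -0.49 to 0.09, adjusted p = 0.510). The other 2 probe sets of Pln gave 0.04 and -0.14. Sln and Pln differed in the direction of their group means, although the difference between them was not tested.

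Parvalbumin, encoded by Pvalb, buffers calcium in the cytosol of fast fibers and speeds their relaxation. Its probe set had 81598, 52851 and 68593 in control, 41180, 51273 and 47399 in DEX, and 50657, 55510 and 53474 in DEX + TE. All DEX arrays lay below all control arrays, but the second control array was close to them, and 2 of the 3 DEX + TE arrays lay above that control array. The means were 67681 ± 14396, 46617 ± 5091 and 53214 ± 2437 (SD, n = 3), with a log2 fold change of DEX against control of -0.52 (SE 0.17, interval -0.92 to -0.12, limma adjusted p = 0.233). This was the largest downward difference of the 10 genes and was not called. Under alternative settings that kept all arrays the limma adjusted p of Pvalb was 0.0414 to 0.608. The log2 fold change there was -0.52 to -0.12, smaller than the fold threshold.

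With TE supplementation the signals of all 10 genes overlapped those of the DEX group. In DEX + TE against DEX 0 of 21 probe sets were called by limma (0.0137% of all probe sets) and 0 by Rank Product (0.123%), 0 had an unadjusted p under 0.05 (7.76%), and 0 were without overlap between groups (14.8%). The brightest probe sets ranged from -0.17 for Sln (interval -0.59 to 0.25, adjusted p = 0.848) to 0.23 for Atp2a1 (interval -0.16 to 0.61, adjusted p = 0.779). Pvalb had 0.20 (interval -0.20 to 0.60) and Casq1 0.12 (interval -0.15 to 0.39). These intervals bound the difference and do not show that the DEX and DEX + TE groups were alike. The median of the 10 genes was 0.09, beside 0.05 over all probe sets. The sign of this comparison depended on the scaling: with arrays centred on their medians, which moved the median of all probe sets to -0.20, the values of Atp2a1, Casq1, Pvalb, Pln, Trdn and Atp2a2 became negative.

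In DEX + TE against control 0 of 21 probe sets were called by limma (0.379% of all) and 0 by Rank Product (0.441%), while 2 had an unadjusted p under 0.05, Sln and Casq1 (13.8% of all). The groups did not overlap for 4, Sln above control and Casq1, Ryr1 and Cacna1s below it (22.7% of all). With the 6 arrays of injected mice set against the 3 control arrays, 0 of 21 were called by limma (0.929%) and 0 by Rank Product (1.37%), 3 had an unadjusted p under 0.05, namely Sln, Casq1 and Pvalb (15.8%), and 2 did not overlap, Sln and Casq1 (10.9%). These comparisons share the control arrays, so they are not independent of DEX against control. The medians of the 10 genes were -0.10 and -0.14, beside 0.05 and 0.01 over all probe sets.

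The isoform pairs were then compared within each array, where a factor common to all probe sets of an array cancels, although an effect that depends on brightness does not. The quantity is the log2 signal of Atp2a2 minus that of Atp2a1, or of Casq2 minus that of Casq1. Since different probe sets are not on the same scale, only its change between groups is given. For Casq2 minus Casq1 the 3 DEX arrays and the 3 DEX + TE arrays all lay above the 3 control arrays. Its mean was 0.79 higher in DEX than in control (exact permutation test, two-sided, p = 0.1, the smallest that 3 against 3 arrays allow) and 0.52 higher in DEX + TE (exact p = 0.1). For both injected groups against control the change was 0.66 (exact p = 0.0238, the smallest that 6 against 3 arrays allow, and 0.16 after adjustment over the 8 balance tests). After quantile normalization the values were 0.53 in DEX (exact p = 0.1), 0.35 in DEX + TE (exact p = 0.2) and 0.44 over both injected groups (exact p = 0.0476).

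For Atp2a2 minus Atp2a1 the change was 0.53 in DEX (exact p = 0.1, no overlap with control) and 0.39 in DEX + TE (exact p = 0.2, with overlap). Quantile normalization lowered these values to 0.10 (exact p = 0.6) and 0.13 (exact p = 0.5). Without the first control array they were 0.28 (exact p = 0.2, the smallest possible there) and 0.14 (exact p = 0.4). Over both injected groups the change was 0.46 (exact p = 0.0476, adjusted 0.16), and 0.12 after quantile normalization (exact p = 0.452). Without the first control array that value was 0.21 (exact p = 0.143), and without the third it was 0.54 (exact p = 0.143). In DEX + TE against DEX the changes were -0.27 for the calsequestrins (exact p = 0.2) and -0.14 for the pumps (exact p = 0.5). With this number of arrays no adjusted p under 0.05 could be reached over the 8 balance tests, so the adjusted values cannot tell a difference from none.

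**Figure D3:**
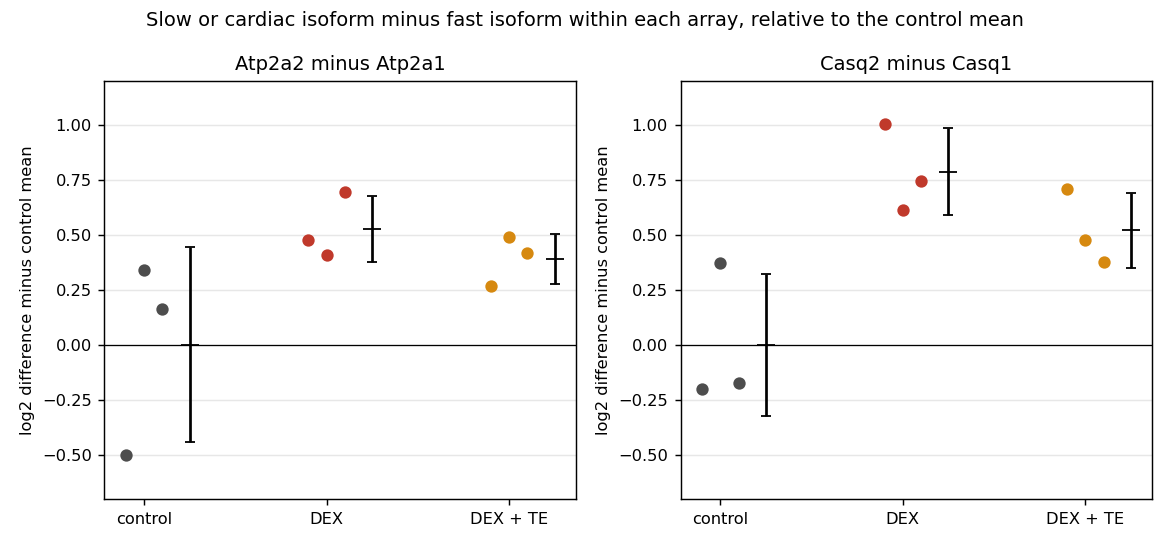
Log2 signal of Atp2a2 minus Atp2a1 (left) and Casq2 minus Casq1 (right) on each of 9 arrays, drawn relative to the control mean, with bars for the mean and SD of 3 arrays. The DEX arrays lie above the control arrays in both panels, and the DEX + TE arrays do so for the calsequestrin pair.

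Of the 6 genes with lower means in DEX, 5 were among the brightest on the array and Pln was not. Pvalb, Atp2a1, Trdn, Casq1 and Ryr1 stood at the 99.9, 99.9, 99.6, 99.4 and 99.3 percentiles of mean signal among 13662 genes, Cacna1s at 95.5, Casq2 at 79.8, Atp2a2 at 75.5, Sln at 46.5 and Pln at 41.4. Of the 137 brightest genes 92.7% had a lower mean in DEX than in control, with a median log2 fold change of -0.31, which quantile normalization turned to -0.02. After quantile normalization the log2 fold change of DEX against control was -0.12 for Pvalb, -0.20 for Casq1 and -0.03 for Atp2a1, and it was 0.08 for Ryr1 and 0.10 for Trdn. That of Sln was 0.88 and that of Casq2 0.32. How much of the lower signal of the bright genes is a property of the array or the scaling and how much is less RNA was not tested.

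**Figure D4:**
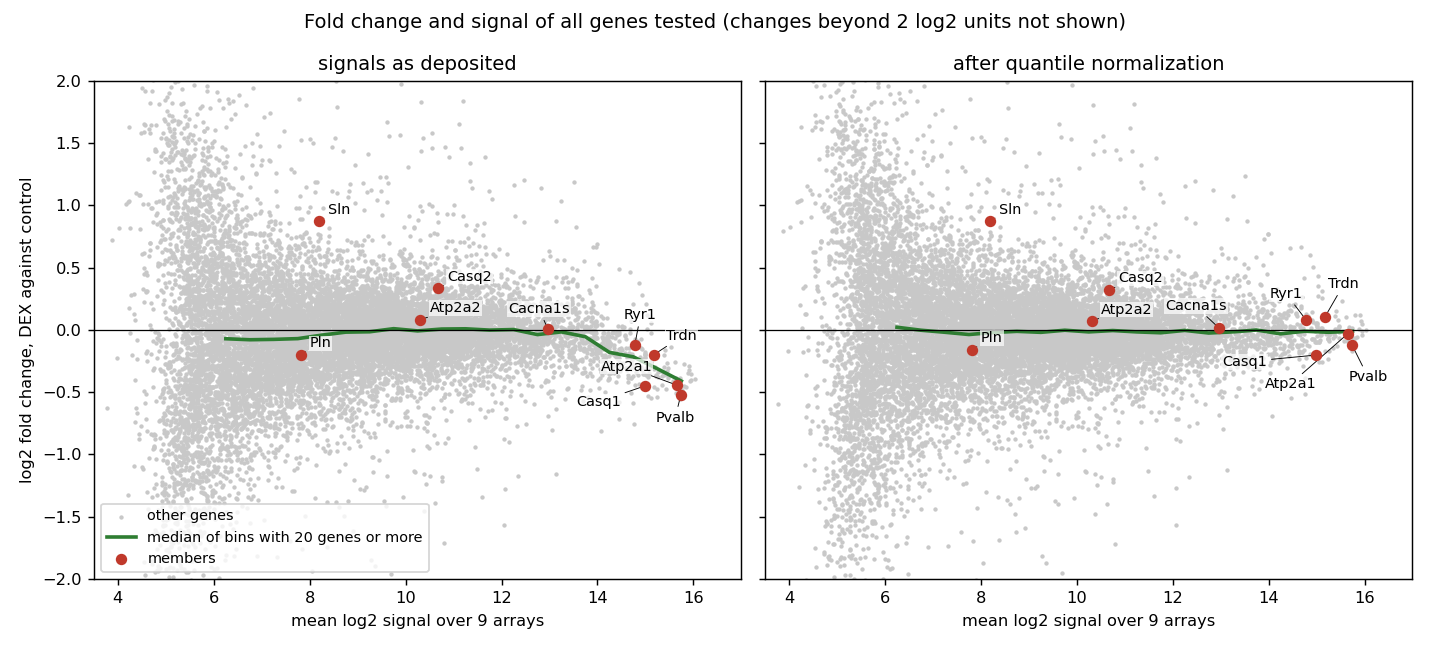
Log2 fold change of DEX against control (vertical axis) by mean log2 signal (horizontal axis) for the brightest probe set of each gene tested, as deposited on the left and after quantile normalization on the right, with the 10 genes in red and the median of bins in green. On the left the green line falls below 0 at high signal, where Pvalb, Atp2a1, Casq1, Trdn and Ryr1 lie, and on the right it stays near 0, while Sln keeps its place in both.

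Means of fiber type genes differed in the same comparison. All 8 fast fiber markers had lower means in DEX than in control, with a median log2 fold change of -0.43, among them Tnnt3 (-0.39), Tnni2 (-0.40), Mylpf (-0.35) and Myh1 (-0.46), which encode parts of the fast filament. Lower means were also found for 92.7% of the 137 brightest genes (median -0.31, or -0.02 after quantile normalization). Whether the fast fiber markers differ from bright genes in general was not tested. Of the 6 slow fiber markers 5 had higher means, with a median of 0.55. Myh7, the slow myosin heavy chain, had 82.8, 22.9 and 75.9 in control, 161, 488 and 186 in DEX and 151, 481 and 346 in DEX + TE, with a log2 fold change of 2.22 (adjusted p = 0.209). Tnnt1, slow troponin T, had 0.24, and Myl2 had 0.96. Myl3, a slow light chain, went the other way with -0.70 (adjusted p = 0.330), with control signals of 2972, 7093 and 5045, and its value was -0.98 in DEX + TE against control. None of the 14 fiber markers was called by limma, which called 0.502% of all probe sets in DEX against control, and 9 had an unadjusted p under 0.05 there (14.4% of all). Rank Product called Myh7 in both injected groups against control (1.37% of all). Their part in the differences of the calcium genes was not tested.

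Beyond the 10 genes, 80 other genes of calcium handling were listed, 70 had a probe set with a single symbol and 66 were tested by their brightest probe set. In DEX against control 0 of the 66 were called by limma and 0 by Rank Product, 31 had higher and 35 lower means, 10 had an unadjusted p under 0.05 (15.2%, beside 14.4% of all probe sets), and the median was -0.01. Groups did not overlap for 20 of the 66 there (30.3%, beside 21.2% of all probe sets). With both injected groups against control this held for 14 (21.21%, beside 10.9%). In DEX + TE against DEX 0 were called by either, 2 had an unadjusted p under 0.05 (3.03%, beside 7.76%), 10 did not overlap (15.15%, beside 14.8%), and the median was -0.005. Over all 154 tested probe sets of these genes 2 were called in DEX against control, both of Tmem38b, where 0.502% of all probe sets were called. The same pair was called in both injected groups against control, where 0.929% were. In DEX + TE against DEX and in DEX + TE against control 0 of the 154 were called by limma or by Rank Product, with 7 (4.55%, beside 7.76% of all) and 25 (16.2%, beside 13.8%) of them under an unadjusted p of 0.05. A probe set of Ryr3 was the 1 called by Rank Product in DEX against control, where 0.215% of all probe sets were. It was also the 1 called in both injected groups against control, where 1.37% were. This probe set passed the signal filter through control only, the group where it was high, so its call is no support for a fall.

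Tmem38b encodes TRIC-B, a potassium channel of the reticulum that balances charge while calcium leaves it, and 2 of its 4 probe sets rose after DEX injection. The probe set 1424700_at had 2113, 2256 and 2186 in control, 5542, 3807 and 3954 in DEX, and 3730, 3377 and 3515 in DEX + TE. DEX was 2.00-fold of control (log2 1.00, SE 0.15, adjusted p = 0.0490 by limma). The probe set 1449677_s_at had 1381, 1752 and 1536 in control, 3444, 2771 and 3063 in DEX, and 2452, 2366 and 2586 in DEX + TE, with a log2 fold change of 0.99 (SE 0.13, adjusted p = 0.0317).

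The other 2 probe sets of Tmem38b gave 0.56 (1456544_at, adjusted p = 0.139) and 0.89 (1419949_at, adjusted p = 0.216), and the DEX arrays were above the control arrays for all 4. Neither of these 2 was called, and 1456544_at is the brightest of the 4, which represented the gene in the counts by gene. On the 3 brighter ones the DEX + TE means lay between control and DEX. For the called pair every DEX + TE array was below every DEX array, in a comparison where 14.8% of all probe sets did not overlap. The log2 fold changes of this pair were -0.30 and -0.32 and were not called (adjusted p = 0.694 and 0.620). Both injected groups against control gave 0.85 (adjusted p = 0.0394) and 0.83 (adjusted p = 0.0266). The calls rest on adjusted p-values near the threshold. Leaving out single arrays in DEX against control gave 0.0468 to 0.139 for 1424700_at, which passed without the first DEX array only, and 0.0570 to 0.0968 for 1449677_s_at, while the log2 fold changes stayed between 0.83 and 1.1. With no signal filter the adjusted p was 0.133 and 0.0950, and with only the compared arrays fitted 0.178 and 0.145.

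**Figure D5:**
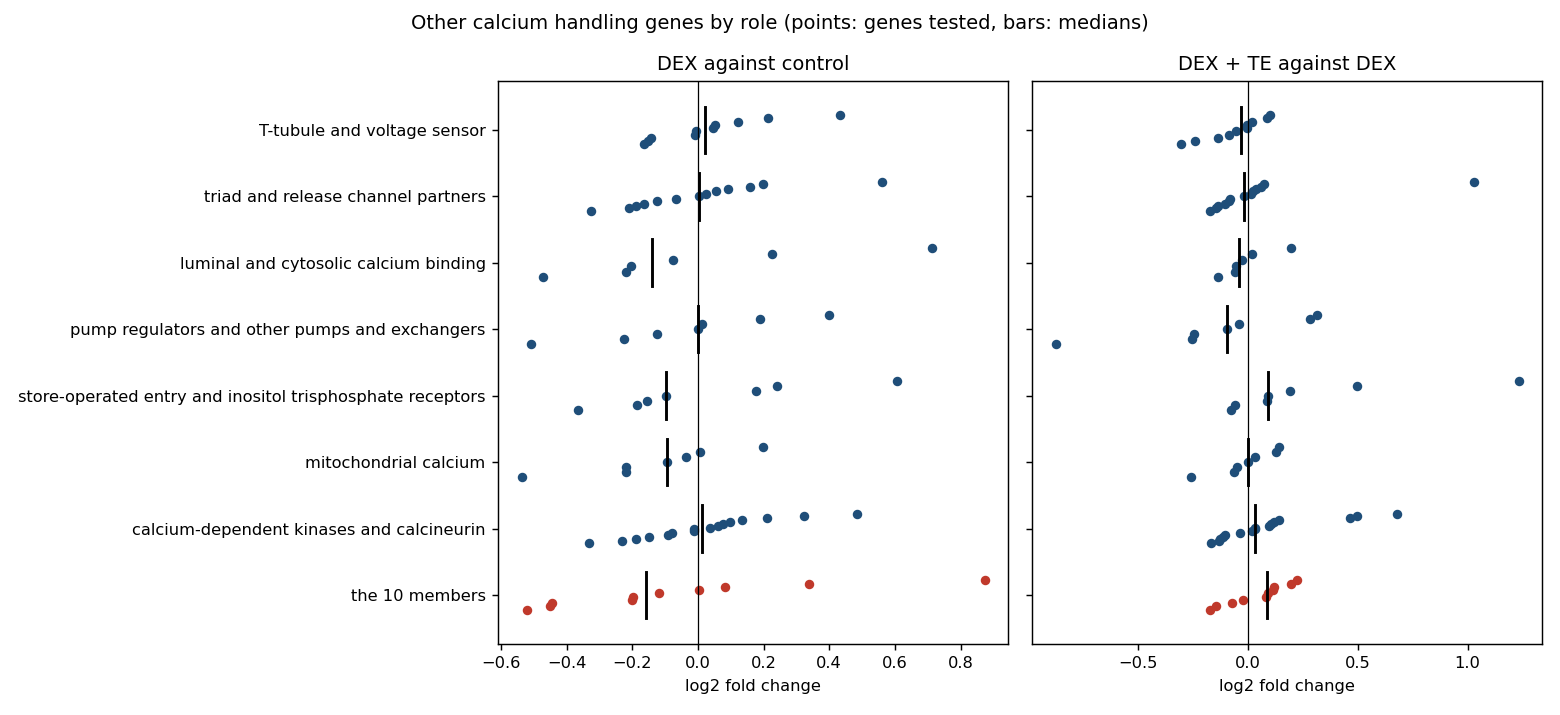
Log2 fold change (horizontal axis) of the 66 other calcium handling genes by role and of the 10 genes in red, each by its brightest probe set, for DEX against control on the left and DEX + TE against DEX on the right, with bars for medians. Points lie on both sides of 0 in every role, and the medians of the 7 roles lie between -0.14 and 0.02 on the left.

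Among the partners of the voltage sensor and the release channel, values lay on both sides of 0, and apart from the probe sets of Tmem38b and Ryr3 none of those named here was called. Of 10 tested genes of the transverse tubule 1 had an unadjusted p under 0.05, Cacng1, the gamma subunit of the voltage sensor, with 0.43 for DEX against control (adjusted p = 0.245) and -0.30 for DEX + TE against DEX (adjusted p = 0.683). The chloride channel gene Clcn1 had 0.21, the voltage sensor adaptor Stac3 -0.16 and the caveolin gene Cav3 -0.15. Of 13 triad genes 1 had an unadjusted p under 0.05, beside 14.4% of all probe sets. Sypl2, which encodes the triad protein mitsugumin 29, had -0.33, Ryr3, a second release channel, -0.21 and Dhrs7c 0.20. Another probe set of Ryr3 (1427427_at), the one called by Rank Product, had 76.6, 65.4 and 112 in control and 6.52, 15.4 and 7.15 in DEX, so only the control group was above 50, and limma gave it an adjusted p of 0.105.

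In DEX against control 3 of 6 genes of calcium binding had an unadjusted p under 0.05, beside 14.4% of all probe sets. Of these 1 was higher and 2 were lower. With both injected groups against control there were 4, with 1 higher and 3 lower, beside 15.8%. Tnnc1, the slow and cardiac troponin C, had 219, 227 and 195 in control, 321, 447 and 298 in DEX, and 264, 382 and 319 in DEX + TE. All injected mice were above control (10.9% of all probe sets did not overlap there), with a log2 fold change of 0.71 for DEX (adjusted p = 0.171). Tnnc2, the fast troponin C, had -0.47 (adjusted p = 0.279), with overlapping groups. The luminal proteins sarcalumenin (Srl) and calreticulin (Calr) had -0.22 (adjusted p = 0.332) and 0.23 (adjusted p = 0.369), each without overlap (21.2% of all probe sets in DEX against control). The 7 other pumps and exchangers had a median of 0.00, with Slc8a3 at -0.51, Slc8a1 at 0.40, Atp2a3 at -0.23 and Atp2b2 at 0.19, and 0 had an unadjusted p under 0.05.

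Store-operated entry, mitochondrial uptake and calcium-dependent signalling gave no call either. An unadjusted p under 0.05 in DEX against control held for 2 of 7, 1 of 7 and 2 of 16 genes (14.4% of all probe sets). Orai3, a plasma membrane calcium channel, had 168, 156 and 134 in control, 215, 271 and 212 in DEX, and 223, 292 and 226 in DEX + TE, all injected mice above control, with a log2 fold change of 0.60 (adjusted p = 0.167). The reticulum sensor Stim2 had 0.24, the channel Orai1 -0.19 and the inositol trisphosphate receptor Itpr2 -0.36. Mcu, the pore of the mitochondrial calcium uniporter, had 2497, 2254 and 1941 in control, 1419, 1556 and 1619 in DEX, and 1855, 1467 and 1761 in DEX + TE, all below control, with -0.54 (adjusted p = 0.155). Its regulator Micu2 and the outer membrane channel Vdac1 each had -0.22, and the exchanger Slc8b1 had 0.20. Of 16 kinase and calcineurin genes, the kinase Camk2d had 0.48 on the log2 scale (adjusted p = 0.241) and the calcineurin target Nfatc1 0.32 (adjusted p = 0.189), both without overlap, while Nfatc4 had -0.33 and Camk2a -0.23. Of all probe sets 21.2% did not overlap in DEX against control, and 10.9% with both injected groups against control.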

How the data were processed

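Tibialis anterior RNA (250 ng) of 9 mice was labelled by a 3′ in vitro transcription kit and hybridised to 1 Affymetrix array per mouse. The intensity values deposited by the authors are linear, and their mean after a 2% trim at both ends equals 500 for all arrays. The study's methods name Robust Multi-array Average, whose output is on a log2 scale, so the deposited values have some other origin, and the sources used here do not name it. Symbols came from the platform annotation. After removal of 64 control probe sets, log2 intensities of 45037 probe sets were taken without an offset, and a probe set was tested if its mean log2 reached log2 of 50 in at least 1 group. Group means of the 9 arrays were modelled with limma (version 3.58.1, R 4.3.3) and p-values were adjusted by Benjamini and Hochberg over the 29269 probe sets tested. Rank Product ran with 100 permutations. Other steps used Python 3.11.15, numpy 2.4.6, scipy 1.17.1, pandas 2.3.3 and matplotlib 3.10.9.

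A gene with several probe sets was represented by the brightest. The 10 genes and all lists were chosen with earlier results of these data known. The text names the 10 genes, every called gene of the wider list, up to 4 genes per role with the largest fold change in DEX against control, the 4 brightest markers of each fiber type, and for Sln, Pln, Atp2a2 and Casq2 the 3 genes most like each. Myh7, Tnni3, Nppb, Col1a1 and the second probe set of Ryr3 were named after their values were seen. Alternatives concerned scaling, signal filter, an offset of 16, arrays fitted, a variance trend, replicate number as a block, probe set choice and omission of each array. In a simulation of DEX against control with 29269 probe sets, shifts were set in probe sets drawn at random. There limma found 30 of 100 shifts of log2 1 and 67 of 100 shifts of log2 2, and made 5 false calls.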

Additional observations from a re-analysis of the deposited data

How the results depend on the processing

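With 3 arrays a group, limma called 30 of 100 simulated shifts of log2 1 in DEX against control. These shifts were set in probe sets drawn at random from all those tested. The share therefore does not say how often such a shift would be found in the 10 genes. The scaling moves the bright genes. The count of called probe sets of the 10 genes was 0 under the alternatives except a group mean of at least 100 and the mean-variance trend, where it was 1 (Sln), in DEX against control and in both injected groups against control. The median of the 10 genes in DEX against control was -0.056 with arrays centred on their medians, 0.043 with quantile normalization and -0.061 with the mean of all probe sets of a gene. Under centring and quantile normalization it was -0.168 and -0.006 in DEX + TE against DEX. Under centring, quantile normalization and the gene mean it was -0.254, 0.018 and -0.021 in DEX + TE against control, and under the last pair 0.022 and -0.035 in both injected groups against control. The cause was not tested.

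The calsequestrin balance in both injected groups was 0.655 with the replicate block (exact permutation p = 0.0741) and 0.554 to 0.842 without single arrays. Omitting any control array gave an exact p of 0.0714. Each of these p-values is the smallest that its test allows and cannot show a weaker balance. For the pumps the balance in both injected groups was 0.459 with the replicate block (exact p = 0.0741, again the smallest possible). It was 0.115 with quantile normalization (exact p = 0.452) and 0.208 to 0.629 without single arrays. Quantile normalization gave 0.023 for the pumps in DEX + TE against DEX. In DEX + TE against DEX, centring gave -0.028 for Atp2a1, -0.164 for Atp2a2, -0.134 for Casq1, -0.140 for Pln, -0.058 for Pvalb and -0.172 for Trdn. Quantile normalization gave 0.081 for Ryr1 and 0.101 for Trdn in DEX against control, 0.045 for Atp2a1 and 0.088 for Trdn in DEX + TE against control, 0.007 for Atp2a1, 0.036 for Ryr1 and 0.095 for Trdn in both injected groups, and -0.013 for Trdn in DEX + TE against DEX. The mean of all probe sets gave -0.020 for Atp2a2 in DEX against control, 0.003 for Ryr1 in DEX + TE against DEX, 0.024 for Pln in DEX + TE against control, and for Trdn 0.031 in DEX against control, 0.089 in DEX + TE against control and 0.060 in both injected groups. Without single arrays the values crossed 0 for Ryr1 (-0.071 to 0.031), Atp2a2 (-0.022 to 0.187) and Sln (-0.292 to 0.003) in DEX + TE against DEX, for Cacna1s (-0.039 to 0.034) and Atp2a2 (-0.037 to 0.195) in DEX against control, and for Pln (-0.136 to 0.002) in DEX + TE against control. The cause was not tested.

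The alternatives for Tmem38b were chosen after seeing the data. Its 2 called probe sets kept their direction under each, with 0.972 to 1.103 in DEX against control where all arrays were kept, and with the replicate block their adjusted p was 0.125 and 0.124. Deviations of arrays that share a number correlated between -0.02 and 0.05 (9 pairs) and those of other arrays between -0.04 and 0.04 (18 pairs), so the numbers were not taken to pair the mice. The block called 0 of 21 probe sets of the 10 genes in each comparison. A fit to only the compared arrays has no value for both injected groups, which use all arrays.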

Other observations

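The genes whose log2 signal followed that of a calcium gene most closely over the 9 arrays were listed as a description, since all arrays enter each value, the groups differ, and the best of 13661 genes were taken. For Sln these were Aldh1a1, a retinaldehyde dehydrogenase (Pearson r = 0.975), Mt1, a metallothionein (0.975), and Lrpap1, a receptor chaperone (0.974). For Casq2 they were Nmnat1 (0.936), Cited2 (0.920) and Dicer1 (0.903). For Atp2a2 they were Rcan2, a regulator of calcineurin (0.971), Kis2 (0.945) and Syn3 (0.940), and for Pln they were Riiad1 (0.953), Cfap20 (0.899) and Kank4 (0.897). A high value among so many genes on 9 arrays is no finding, and nothing follows from it about shared function.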
